A study of Homo sapiens with 12 samples.

Results

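The MHC class I and peptide loading genes HLA-B, HLA-C, HLA-E, B2M, TAP1, TAP2, TAPBP, ERAP1 and NLRC5 were read in the FPKM table of a morusinol experiment. FPKM counts the sequenced fragments of a gene relative to its length and to the size of the library. The genes were chosen by name and role and are 9 of the 61466 genes in the table. Each of the 9 was found once and passed the filter on low values (3 or more libraries with FPKM of at least 1), which 17574 genes passed. The 4 groups were SU-DHL-8 cells given morusinol, SU-DHL-8 cells given vehicle, Farage cells given morusinol and Farage cells given vehicle, each sampled at 12 h as 3 libraries. The vehicle groups are called controls here. Both are established human lines of diffuse large B cell lymphoma, recorded as wild type and of lymph node origin, and morusinol is a flavonoid of mulberry (Morus) plants. The sources used here give neither the dose nor the vehicle, nor whether the 3 replicates were separate cultures. The p-values therefore reflect how much these libraries vary, which may be technical variation alone.

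MHC class I molecules carry peptides from inside the cell to its surface, where CD8 T cells and natural killer cells read them. Proteasomes cut proteins into peptides, the TAP1 and TAP2 transporter pumps them into the endoplasmic reticulum, ERAP1 trims them, and tapasin, the product of TAPBP, holds the empty molecule at the transporter until a peptide is bound. Each molecule pairs a heavy chain (HLA-B, HLA-C or HLA-E among these genes) with the invariant light chain B2M, and NLRC5 is the transactivator that works with RFX, CREB family and NF-Y factors at class I promoters. The pathway is of interest in diffuse large B cell lymphoma because loss of B2M or of the heavy chains is a known route by which these tumours escape T cells.

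After morusinol, HLA-E and ERAP1 rose in both lines. HLA-B, HLA-C and TAP1 rose in SU-DHL-8, where NLRC5 passed narrowly as lower, and TAP2 fell in Farage, where HLA-B and TAPBP also passed the test as lower by small amounts. The light chain B2M passed the test in neither line. Of the 9 genes, 6 passed in SU-DHL-8 (5 higher, 1 lower), against 46.8% of all genes tested, and 5 passed in Farage (2 higher, 3 lower), against 43.1% of all genes. By direction, 25.1% of all genes were called higher and 21.6% lower in SU-DHL-8, and 21.9% higher and 21.2% lower in Farage. Since so much of the table was called, these counts over 9 genes do not set the pathway apart. The median log2 fold change of the 9 genes was 0.21 in SU-DHL-8 and -0.06 in Farage, beside 0.02 and -0.03 over all genes tested. All calls are limma tests on log2(FPKM + 1) with Benjamini-Hochberg adjustment over the 17574 genes, made at an adjusted p under 0.05. On this scale a fold change understates the change of low genes.

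Upstream reference sequence is given for 4 of these genes to show how alike the promoters of heavy chain genes with different responses are (HLA-B and HLA-C), beside those of TAP2, which fell in Farage, and B2M, which was not called. The sequences are RefSeq's for GRCh38.p14, not the lines' own alleles. Each begins 250 bases before the RefSeq start and ends before the first base annotated as transcribed for that gene itself. The HLA-C window lies within the annotated span of HLA-B on the same strand. The windows are chr6:31357189-31357429 (minus strand) for HLA-B, chr6:31272131-31272342 (minus strand) for HLA-C, chr6:32838781-32838989 (minus strand) for TAP2 and chr15:44711267-44711486 (plus strand) for B2M. Each is written 5′ to 3′ on the gene's strand, with capitals for matches, on either strand, to 5 short motifs picked after reading the sequences.
HLA-B: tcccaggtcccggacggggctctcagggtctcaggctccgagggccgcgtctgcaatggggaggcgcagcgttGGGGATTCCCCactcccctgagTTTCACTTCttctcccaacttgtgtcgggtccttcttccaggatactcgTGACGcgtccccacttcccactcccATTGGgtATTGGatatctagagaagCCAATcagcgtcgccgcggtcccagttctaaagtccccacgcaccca
HLA-C: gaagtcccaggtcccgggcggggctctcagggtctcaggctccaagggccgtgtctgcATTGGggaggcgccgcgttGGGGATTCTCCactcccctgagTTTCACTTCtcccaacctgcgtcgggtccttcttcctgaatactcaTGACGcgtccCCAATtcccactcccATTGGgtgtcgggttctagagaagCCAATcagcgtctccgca
TAP2: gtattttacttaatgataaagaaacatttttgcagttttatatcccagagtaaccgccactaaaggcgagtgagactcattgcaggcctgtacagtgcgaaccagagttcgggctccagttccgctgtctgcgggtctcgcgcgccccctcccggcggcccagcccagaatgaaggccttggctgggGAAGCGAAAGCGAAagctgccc
B2M: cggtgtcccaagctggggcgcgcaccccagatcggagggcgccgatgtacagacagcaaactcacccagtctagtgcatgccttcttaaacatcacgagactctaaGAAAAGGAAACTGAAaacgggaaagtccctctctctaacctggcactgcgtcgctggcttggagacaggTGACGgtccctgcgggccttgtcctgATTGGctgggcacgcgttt

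The motifs were a kappaB form, GGGGATTCNCC (the stretch of HLA-B and HLA-C, with N where they differ); 2 interferon response forms, GAANNGAAA and GAAANNGAA, whose matches can overlap; the CRE-like TGACG; and the Y box core CCAAT. In the 250 bases before the start, the kappaB form was present in 0.0690% of 34788 promoters, GAANNGAAA in 6.56%, GAAANNGAA in 6.89%, TGACG in 21.2% and CCAAT in 32.02%. HLA-B and HLA-C each held GAANNGAAA, TGACG and CCAAT, and they held the kappaB form by construction, since it was written from their own sequences. Its low share of promoters therefore says nothing about these 2 genes. Other kappaB forms were not searched for, so a gene without this form may hold another. Counted from 1 at the 5′ end of the kappaB form, HLA-C differed from HLA-B by C9T. B2M held GAAANNGAA, TGACG and CCAAT, and TAP2 held both interferon forms and, nearer to the start than the printed stretch, TGACG. Of the 9 genes, 7 had an entry in the RefSeq table, and HLA-E and NLRC5 had none. Of the genes with an entry that are not printed, TAPBP held GAAANNGAA, and TAP1 held GAAANNGAA and CCAAT. TAP1 also had an entry with none of the motifs. ERAP1 held GAANNGAAA and CCAAT, upstream of different starts. TAP1, TAPBP and ERAP1 held neither this kappaB form nor TGACG. A match is only a description of the letters in this window.

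HLA-B (ENSG00000234745, chromosome 6, 31269491 to 31357188, minus strand, build GRCh38, GENCODE release 29) encodes a classical class I heavy chain. It was at 160.0, 152.7 and 144.1 FPKM in SU-DHL-8 morusinol libraries, against 99.4, 99.8 and 93.5 FPKM in SU-DHL-8 controls. Every treated SU-DHL-8 library was above every control, and the log2 fold change was 0.64 ± 0.057 (SE; limma adjusted p = 5.9e-06). Farage morusinol libraries held 53.4, 49.6 and 48.7 FPKM, against 59.8, 53.6 and 59.6 FPKM in Farage controls. The treated Farage libraries lay just below the controls without overlap, with a log2 fold change of -0.19 ± 0.057 (limma adjusted p = 0.023). This Farage call was lost in 9 of 20 alternatives, among them leaving out Farage control 1 or 3 or Farage morusinol 2 or 3 (limma adjusted p of 0.071 to 0.080) and each of 3 other scalings of the libraries (0.077 to 0.11). The 2 responses went opposite ways, and the response in Farage minus that in SU-DHL-8 was -0.82 ± 0.081 (limma adjusted p = 3.4e-05), called in each of 19 alternatives.

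HLA-C (ENSG00000204525, chromosome 6, 31268749 to 31272130, minus strand) encodes the other classical heavy chain of the set, the main ligand of the KIR receptors of natural killer cells. Its level was 69.7, 62.2 and 68.8 FPKM in SU-DHL-8 morusinol libraries, against 58.5, 58.2 and 56.6 FPKM in SU-DHL-8 controls. All treated SU-DHL-8 libraries were higher, by 0.21 ± 0.061 on the log2 scale (limma adjusted p = 0.017). In Farage it was at 52.1, 52.3 and 48.8 FPKM with morusinol and 56.5, 48.8 and 55.2 FPKM in controls. These groups overlapped, and the change of -0.06 ± 0.061 was not called (limma adjusted p = 0.44). The SU-DHL-8 call was lost without SU-DHL-8 control 3, morusinol 1 or morusinol 3 (limma adjusted p of 0.053 to 0.064), with values rescaled to TPM (0.39) and with library medians aligned (0.63). The difference between the responses, -0.27 ± 0.086 (limma adjusted p = 0.032), was lost in 12 of 19 alternatives, among them without any 1 SU-DHL-8 control, without morusinol libraries 1 or 3 of that line, Farage control 1 or 3, or Farage morusinol 3 (limma adjusted p of 0.053 to 0.073).

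HLA-E (ENSG00000204592, chromosome 6, 30489467 to 30494205, plus strand) encodes the non-classical heavy chain that presents leader peptides of other class I chains to the NKG2 receptors of natural killer and T cells. Farage morusinol libraries held 155.2, 154.6 and 139.1 FPKM, against 84.8, 75.4 and 83.3 FPKM in Farage controls. SU-DHL-8 morusinol libraries held 98.5, 97.1 and 96.4 FPKM, against 73.3, 72.1 and 76.1 FPKM in SU-DHL-8 controls. In both lines every treated library was above every control, and the 3 treated Farage libraries were the highest of the 12. Log2 fold changes were 0.87 ± 0.054 in Farage (limma adjusted p = 5.7e-07) and 0.39 ± 0.054 in SU-DHL-8 (limma adjusted p = 0.000133). The rise was larger in Farage by 0.48 ± 0.076 (limma adjusted p = 0.000796), and all 3 calls held in every alternative run.

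**Figure D1:**
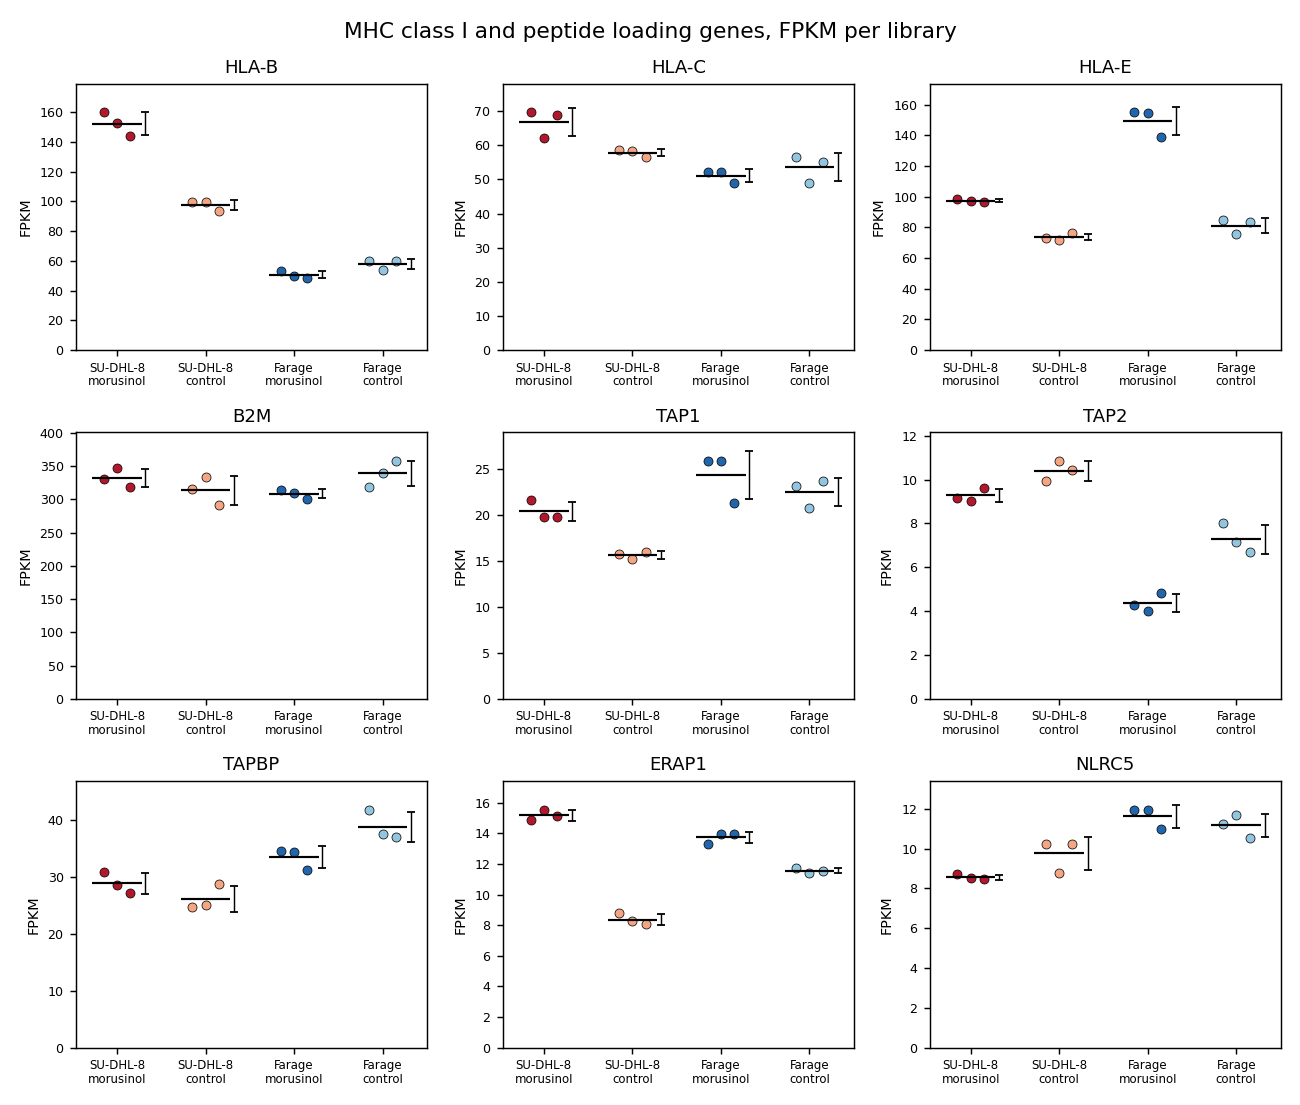
FPKM of the 9 class I pathway genes in each library, by group; points are libraries, horizontal lines are group means and bars are SD (n = 3), and each vertical axis starts at 0. HLA-E separates treated from control libraries in both lines, HLA-B is highest in treated SU-DHL-8 libraries, and the B2M groups stay between 291.4 and 357.6 FPKM.

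The heavy chains therefore shifted against each other in different ways in the 2 lines. HLA-E over HLA-B, a ratio of FPKM taken within each library, was 2.91, 3.11 and 2.85 in Farage morusinol libraries, against 1.42, 1.41 and 1.40 in Farage controls. The same ratio was 0.616, 0.636 and 0.669 in SU-DHL-8 morusinol libraries, against 0.737, 0.722 and 0.814 in SU-DHL-8 controls. It was higher with morusinol in all Farage libraries and lower with morusinol in all SU-DHL-8 libraries, and such a ratio does not depend on the scaling of a library. Farage cells had more HLA-E than HLA-B transcript per length with and without morusinol, and SU-DHL-8 cells had less. HLA-B over HLA-C averaged 2.28 ± 0.18 in SU-DHL-8 morusinol libraries and 1.69 ± 0.033 in SU-DHL-8 controls (SD, n = 3 each), with no overlap. In Farage it averaged 0.99 ± 0.038 with morusinol and 1.08 ± 0.020 in controls (SD, n = 3 each), so the classical chains stood near parity in both groups.

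Summed over HLA-B, HLA-C and HLA-E, the level averaged 316.5 ± 10.25 FPKM in SU-DHL-8 morusinol libraries and 229 ± 2.65 FPKM in SU-DHL-8 controls (SD, n = 3 each). In Farage the sum averaged 251 ± 12.8 FPKM with morusinol and 192.4 ± 12.65 FPKM in controls (SD, n = 3 each). The treated libraries were higher without overlap in both lines, and the sum leaves out all other class I heavy chains. HLA-E made up 58.8 to 60.3% of this sum in Farage morusinol libraries, against 42.1 to 42.4% in Farage controls. Its share in SU-DHL-8 was 30.0 to 31.2% with morusinol and 31.3 to 33.65% in controls. Class I heavy chains are close paralogs whose alleles differ between people, and no source used here says how reads shared between them were assigned, so their levels are uncertain. The annotated span of HLA-B also runs over HLA-C, with 35 exon bases in common on the same strand. HLA-B shares 542 more with the pseudogene AL671883.2 on the opposite strand, which was at no more than 0.75 FPKM.

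**Figure D2:**
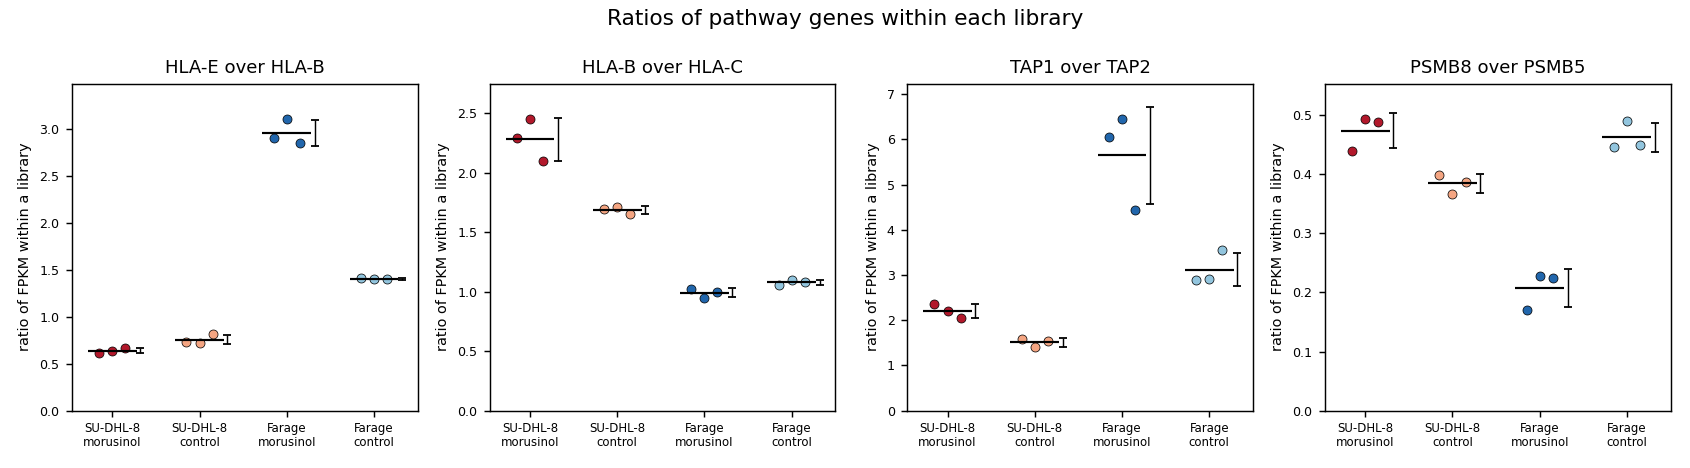
Ratios of FPKM within each library for 4 pairs of pathway genes; points are libraries, lines are group means, bars are SD (n = 3) and axes start at 0. HLA-E over HLA-B and TAP1 over TAP2 are highest in treated Farage libraries, and PSMB8 over PSMB5 is lowest there.

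B2M (ENSG00000166710, chromosome 15, 44711487 to 44718877, plus strand) encodes the light chain that every class I heavy chain needs to reach the surface. It was the most abundant of the 9 transcripts per length in every group. SU-DHL-8 morusinol libraries held 330.7, 346.9 and 318.6 FPKM, against 315.2, 334.0 and 291.4 FPKM in SU-DHL-8 controls. Farage morusinol libraries held 314.5, 309.5 and 300.9 FPKM, against 318.8, 340.3 and 357.6 FPKM in Farage controls. The SU-DHL-8 groups overlapped, while the treated Farage libraries all lay below the Farage controls by a small margin. The log2 fold change was 0.08 ± 0.058 in SU-DHL-8 (limma adjusted p = 0.28) and -0.13 ± 0.058 in Farage (limma adjusted p = 0.087), and neither was called. In SU-DHL-8 the value passed when libraries were scaled to protein-coding genes (0.16, limma adjusted p = 0.024), and its sign turned to -0.02 with values rescaled to TPM and to -0.07 with library medians aligned. The Farage value passed the test without Farage control 1 (-0.18, limma adjusted p = 0.041). The difference between the responses, -0.22 ± 0.082, was not called (limma adjusted p = 0.062), though it was without SU-DHL-8 control 2 or Farage control 1 (0.031 and 0.033) and with scaling to protein-coding genes (0.033). HLA-E over B2M averaged 0.485 ± 0.020 in Farage morusinol libraries and 0.240 ± 0.023 in Farage controls (SD, n = 3 each).

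TAP1 (ENSG00000168394, chromosome 6, 32845209 to 32853978, minus strand) and TAP2 (ENSG00000204267, chromosome 6, 32821833 to 32838780, minus strand) encode the chains of the peptide transporter, which works as a heterodimer. TAP1 was at 21.6, 19.8 and 19.8 FPKM in SU-DHL-8 morusinol libraries, against 15.7, 15.2 and 16.0 FPKM in SU-DHL-8 controls. Treated SU-DHL-8 libraries were all higher, with a log2 fold change of 0.36 ± 0.076 (limma adjusted p = 0.0025), a call lost only with library medians aligned (0.21, limma adjusted p = 0.091) among 20 alternatives. Farage had 25.9, 25.9 and 21.3 FPKM with morusinol and 23.2, 20.8 and 23.7 FPKM in controls. Those groups overlapped and the change of 0.10 ± 0.076 was not called (limma adjusted p = 0.32), but it passed without Farage morusinol 3, the lowest treated library (0.19, limma adjusted p = 0.029). The responses of TAP1 in the lines were not called different (-0.26 ± 0.11, limma adjusted p = 0.089). TAP1 shares 456 exon bases with the antisense gene PSMB8-AS1, and no source used here gives the strand used in counting, so reads of the 2 cannot be told apart.

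TAP2 went the other way. Farage morusinol libraries held 4.27, 4.01 and 4.82 FPKM, against 8.003, 7.15 and 6.69 FPKM in Farage controls. SU-DHL-8 morusinol libraries held 9.18, 9.03 and 9.63 FPKM, against 9.92, 10.8 and 10.4 FPKM in SU-DHL-8 controls. All treated libraries lay below the controls of their line, by a wide gap in Farage and a narrow one in SU-DHL-8. The fall in Farage was -0.62 ± 0.070 on the log2 scale (limma adjusted p = 4.2e-05) and held in each of 20 alternatives. In SU-DHL-8 the value of -0.15 ± 0.070 was not called (limma adjusted p = 0.11), though it passed with library medians aligned (-0.30, limma adjusted p = 0.00698) and when fitted on the 6 SU-DHL-8 libraries alone (limma adjusted p = 0.043). The response in Farage minus that in SU-DHL-8 was -0.48 ± 0.099 (limma adjusted p = 0.00404), a call lost in 1 of 19 alternatives (rescaled to TPM, 0.069). TAP1 over TAP2 reached 6.05, 6.46 and 4.43 in Farage morusinol libraries, against 2.89, 2.91 and 3.55 in Farage controls. It was 2.36, 2.19 and 2.06 in SU-DHL-8 morusinol libraries, against 1.59, 1.40 and 1.54 in SU-DHL-8 controls. The transcripts of the transporter's chains thus moved apart in both lines, with no overlap between treated and control ratios.

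TAPBP (ENSG00000231925, chromosome 6, 33299694 to 33314387, minus strand) encodes tapasin. In Farage it was at 34.7, 34.5 and 31.2 FPKM with morusinol and 41.8, 37.6 and 37.0 FPKM in controls. In SU-DHL-8 it was at 30.9, 28.6 and 27.2 FPKM with morusinol and 24.8, 25.0 and 28.8 FPKM in controls. The Farage groups were apart, with treated libraries lower, and the SU-DHL-8 groups overlapped. The Farage change was -0.21 ± 0.074 (limma adjusted p = 0.044), and the SU-DHL-8 value of 0.14 ± 0.074 was not called (limma adjusted p = 0.16), though it was without SU-DHL-8 control 3 (0.21, limma adjusted p = 0.042) and with scaling to protein-coding genes (0.21, limma adjusted p = 0.040). The Farage call was lost in 13 of 20 alternatives, including without Farage control 1 or 2, any 1 of the 3 Farage morusinol libraries, library 2 of either SU-DHL-8 group (limma adjusted p of 0.050 to 0.15). The difference between the responses, -0.35 ± 0.10 (limma adjusted p = 0.027), was lost in 8 of 19, among them without SU-DHL-8 control 1 or 2, morusinol 1 of that line, Farage control 1 or Farage morusinol 3.

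ERAP1 (ENSG00000164307, chromosome 5, 96760810 to 96808100, minus strand) encodes the aminopeptidase that trims peptides to the length class I molecules hold. It was at 14.9, 15.5 and 15.1 FPKM in SU-DHL-8 morusinol libraries, against 8.78, 8.26 and 8.04 FPKM in SU-DHL-8 controls. In Farage the morusinol libraries held 13.29, 13.96 and 13.94 FPKM, against 11.7, 11.4 and 11.5 FPKM in Farage controls. Treated libraries were above controls without overlap in both lines, and within a group the 3 libraries lay close together. ERAP1 had the largest rise of the 9 genes in SU-DHL-8, 0.79 ± 0.039 on the log2 scale (limma adjusted p = 6.6e-08), and a smaller one of 0.23 ± 0.039 in Farage (limma adjusted p = 0.000732). The response in Farage minus that in SU-DHL-8 was -0.56 ± 0.055 (limma adjusted p = 3.4e-05). These 3 calls held in every alternative run. ERAP1 shares 299 exon bases with CAST and 252 with an antisense gene, both on the opposite strand, so the strand limit given for TAP1 holds here too.

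NLRC5 (ENSG00000140853, chromosome 16, 56989485 to 57083531, plus strand), the transactivator, was at 8.71, 8.53 and 8.45 FPKM in SU-DHL-8 morusinol libraries, against 10.2, 8.78 and 10.2 FPKM in SU-DHL-8 controls. In Farage it was at 11.95, 11.95 and 10.97 FPKM with morusinol and 11.3, 11.7 and 10.5 FPKM in controls. The treated SU-DHL-8 libraries were all lower than their controls, 1 of which lay close to them, and the Farage groups overlapped. The SU-DHL-8 value of -0.17 ± 0.062 passed narrowly (limma adjusted p = 0.048), and the Farage value of 0.05 ± 0.062 did not pass (limma adjusted p = 0.54). The SU-DHL-8 call was lost in 14 of 20 alternatives, with a limma adjusted p of up to 0.26. Among these was each removal of 1 library except SU-DHL-8 control 2, Farage control 3 and Farage morusinol 3. NLRC5 is known to activate genes of the class I pathway. In SU-DHL-8 the heavy chain genes and TAP1 were called higher as given, but HLA-C and TAP1 were not with library medians aligned. B2M was not called there (0.08 ± 0.058), and the immunoproteasome gene PSMB9 was called lower (-0.55 ± 0.064). Whether the values of these genes relate to the level of NLRC5 was not tested. The difference between the responses of NLRC5, 0.22 ± 0.088, was not called (limma adjusted p = 0.078), though it was without SU-DHL-8 control 2 (0.29, limma adjusted p = 0.014), with TPM (0.35) and with medians aligned (0.37).

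**Figure D3:**
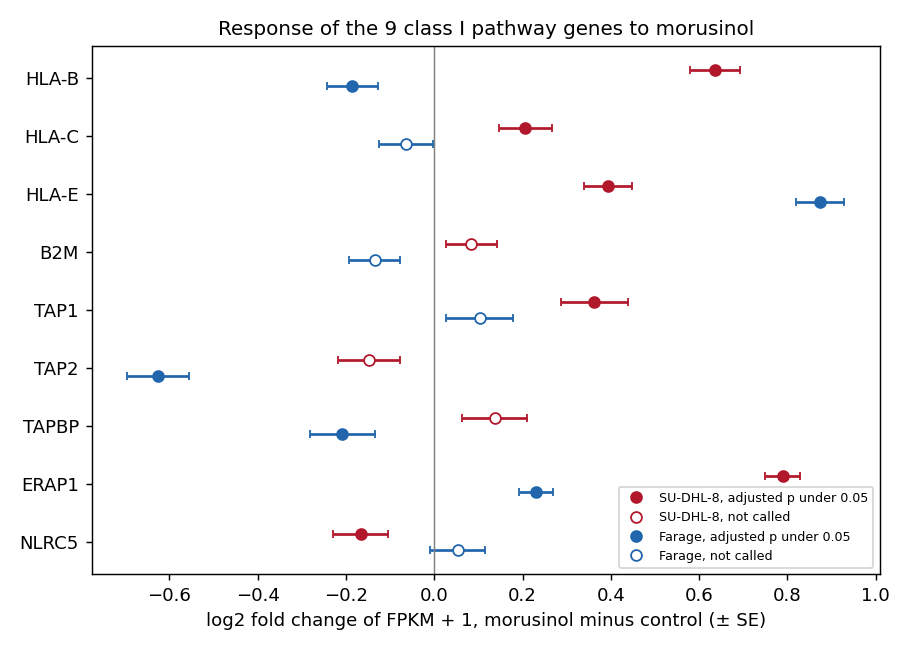
Log2 fold change of FPKM + 1, morusinol minus control, for the 9 genes in each line, with SE bars from the limma fit to 12 libraries; filled points passed an adjusted p of 0.05 and open points did not. HLA-B and ERAP1 lie farthest to the right in SU-DHL-8 (0.64 and 0.79), HLA-E lies farthest to the right in Farage (0.87) and TAP2 farthest to the left (-0.62).

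Set against each other, the responses of the lines were called different for 6 of the 9 genes, against 34.9% of all genes tested. HLA-E alone of these 6 was higher in the Farage response, against 17.3% of all genes, and HLA-B, HLA-C, TAP2, TAPBP and ERAP1 were lower, against 17.6%. The median difference over the 9 genes was -0.27 on the log2 scale, beside -0.07 over all genes. The calls for HLA-B, HLA-E and ERAP1 held in each of 19 alternatives. With library medians aligned, the split of all called genes moved from 49.6% to 68.4% higher in the Farage response, and to 60.2% with TPM, and HLA-C and TAPBP were no longer called under either.

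Without morusinol the lines already differed. Farage controls minus SU-DHL-8 controls were called for 6 of the 9 genes, against 64.1% of all genes. TAPBP (0.55 ± 0.074), TAP1 (0.50 ± 0.076), ERAP1 (0.42 ± 0.039) and NLRC5 (0.18 ± 0.062) were higher in Farage controls, against 34.5% of all genes. HLA-B (-0.75 ± 0.057) and TAP2 (-0.46 ± 0.070) were lower in Farage controls, against 29.6%. HLA-C (-0.11 ± 0.061), HLA-E (0.13 ± 0.054) and B2M (0.11 ± 0.058) were not called, with limma adjusted p of 0.13, 0.051 and 0.11. HLA-E passed without Farage control 2 or Farage morusinol 3, B2M without SU-DHL-8 control 2 or Farage control 1, both with TPM and with scaling to protein-coding genes, and HLA-C with medians aligned. The call for NLRC5 was lost in 4 alternatives, namely without a filter on low values and without SU-DHL-8 control 2, Farage control 1 or Farage control 2. With library medians aligned, which moved the median difference over all genes to -0.16 from 0.08 and the share of called genes higher in Farage to 38.2% from 53.8%, the signs of NLRC5, HLA-E and B2M turned to -0.06, -0.11 and -0.13.

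Ranked by mean FPKM, the order of the 9 genes in SU-DHL-8 morusinol libraries was B2M, HLA-B, HLA-E, HLA-C, TAPBP, TAP1, ERAP1, TAP2 and NLRC5, with no overlap between neighbours. SU-DHL-8 controls had the same first 6 genes, followed by TAP2, NLRC5 and ERAP1, and the libraries of TAP2 and NLRC5 overlapped. ERAP1 therefore stood at the seventh place with morusinol and at the ninth in controls. In both Farage groups HLA-E followed B2M. HLA-B and HLA-C came next, overlapping each other, and then TAPBP, TAP1, ERAP1, NLRC5 and TAP2, with overlap of ERAP1 and NLRC5 in the controls only.

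The scaling of the libraries bore on the small changes. In SU-DHL-8, aligning the library medians moved the median log2 fold change over all genes to -0.13 from 0.02 and turned the split of called genes from 53.7% to 36.8% higher. Relative to that median, HLA-B, HLA-E and ERAP1 remained called as higher, TAP2 and NLRC5 were called as lower, and HLA-C and TAP1 were not called. In Farage all 3 other scalings left 3 of the 9 genes called, namely HLA-E and ERAP1 as higher and TAP2 as lower.

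**Figure D4:**
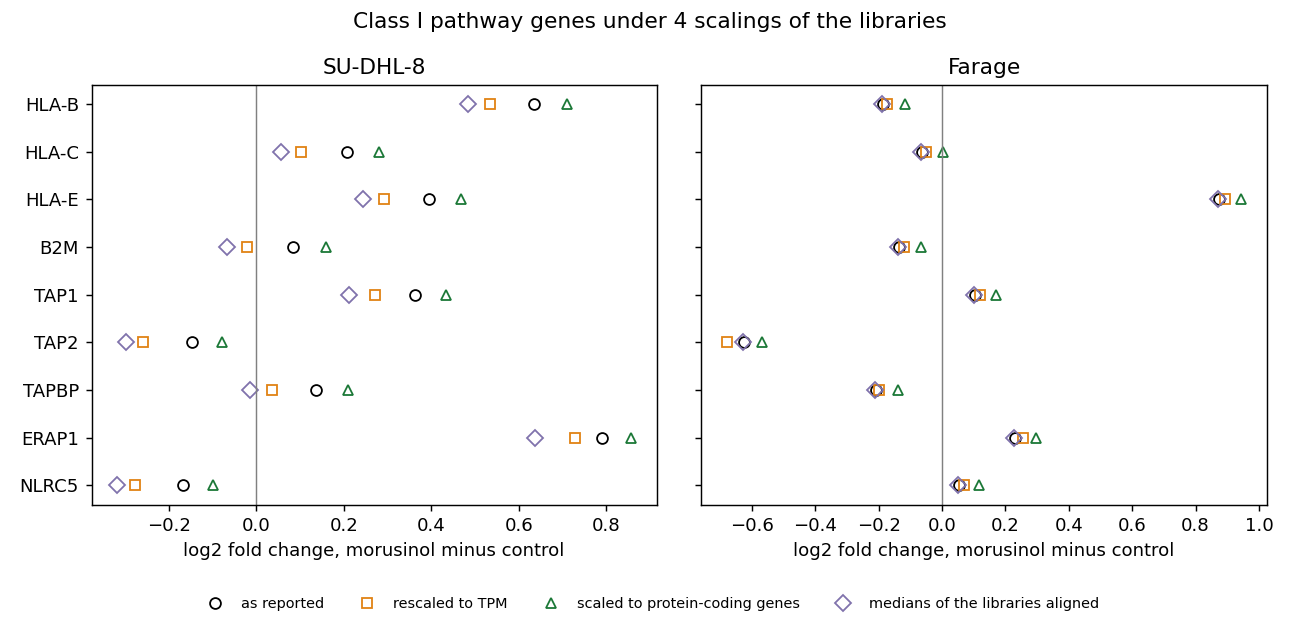
Log2 fold change, morusinol minus control, of the 9 genes under 4 scalings of the libraries, SU-DHL-8 on the left and Farage on the right. In SU-DHL-8 all genes shift together between scalings and only B2M and TAPBP cross 0; in Farage the points lie close together and only HLA-C crosses 0.

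The other genes of the pathway were read as lists, chosen by role. The counts of every list stand beside the shares of all genes tested. These were 25.1% higher and 21.6% lower in SU-DHL-8, and 21.9% higher and 21.2% lower in Farage. The lists are short, so their counts are descriptions. Among 5 partners of peptide loading, 3 were higher and none lower in SU-DHL-8, and 3 were higher and 2 lower in Farage. CALR, which encodes the chaperone calreticulin, was at 720.6, 725.4 and 675.7 FPKM in Farage morusinol libraries, against 405.6, 357.2 and 401.1 FPKM in Farage controls. In SU-DHL-8 it was at 482.7, 473.8 and 454.6 FPKM with morusinol and 309.0, 284.4 and 303.2 FPKM in controls. Both sets were apart, with log2 fold changes of 0.87 ± 0.055 in Farage and 0.65 ± 0.055 in SU-DHL-8. CANX (calnexin) rose by 0.90 ± 0.035 in Farage and 0.95 ± 0.035 in SU-DHL-8, and PDIA3, the disulfide isomerase ERp57 that is bound to tapasin, rose by 0.35 ± 0.038 in Farage and 1.11 ± 0.038 in SU-DHL-8. TAPBPL (a tapasin-like exchange factor) and ERAP2 (a trimming enzyme related to ERAP1) fell in Farage (-0.35 and -0.36) and were not called in SU-DHL-8 (-0.08 and -0.06). The list's median was 0.65 in SU-DHL-8 and 0.35 in Farage, and its calls in each line were the same in number under all 4 scalings. CALR over TAPBP, the chaperone against tapasin, was 16.3 ± 0.58 in SU-DHL-8 morusinol libraries and 11.5 ± 0.98 in SU-DHL-8 controls, and 21.2 ± 0.43 in Farage morusinol libraries and 10.01 ± 0.72 in Farage controls (SD, n = 3 each). CALR, CANX and PDIA3 also serve the folding of glycoproteins in general.

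Genes of the immunoproteasome, the form of the proteasome that interferon induces and that lymphoid cells carry, were lower. Of its 3 catalytic subunits and the 2 subunits of its PA28 activator, 5 were lower in Farage and 4 in SU-DHL-8. Over all genes tested, 21.2% were called lower in Farage and 21.6% in SU-DHL-8. None of these 5 genes was higher under any of the 4 scalings. PSMB8 was at 5.53, 7.59 and 6.37 FPKM in Farage morusinol libraries, against 19.9, 19.9 and 21.5 FPKM in Farage controls. It was at 13.7, 15.1 and 15.7 FPKM in SU-DHL-8 morusinol libraries, against 24.4, 23.3 and 22.1 FPKM in SU-DHL-8 controls. The groups were apart in both lines, with log2 fold changes of -1.52 ± 0.091 in Farage and -0.62 ± 0.091 in SU-DHL-8. PSMB9 changed by -0.56 in Farage and -0.55 in SU-DHL-8, PSME1 by -0.60 in Farage and -0.63 in SU-DHL-8, and PSME2 by -0.71 in Farage and -1.02 in SU-DHL-8. PSMB10 was lower in Farage (-0.94 ± 0.12) and not called in SU-DHL-8 (-0.16 ± 0.12, limma adjusted p = 0.32). The list's median was -0.71 in Farage and -0.62 in SU-DHL-8.

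The standard catalytic subunits that those 3 replace were lower as well, all 3 in SU-DHL-8 (PSMB5 -0.93, PSMB6 -0.60, PSMB7 -0.45) and 2 in Farage (PSMB5 -0.49, PSMB7 -0.42; PSMB6 at -0.18 was not called). PSMB8 over its standard counterpart PSMB5 was 0.171, 0.228 and 0.225 in Farage morusinol libraries, against 0.447, 0.490 and 0.450 in Farage controls. The ratio was 0.439, 0.494 and 0.488 in SU-DHL-8 morusinol libraries, against 0.399, 0.367 and 0.387 in SU-DHL-8 controls. It was thus lower with morusinol in Farage and higher with morusinol in SU-DHL-8, without overlap in either line. The ratio of PSMB10 over PSMB7 lay apart the same way, at 0.0729 to 0.0936 in Farage morusinol libraries and 0.110 to 0.158 in Farage controls, and at 0.152 to 0.183 in SU-DHL-8 morusinol libraries and 0.125 to 0.144 in SU-DHL-8 controls. For PSMB9 over PSMB6 this held in Farage alone, with 0.209 to 0.269 in morusinol libraries and 0.300 to 0.327 in controls. In SU-DHL-8 that ratio overlapped, at 0.326, 0.349 and 0.354 in morusinol libraries, against 0.323, 0.360 and 0.321 in controls. PSMB9 and TAP1 are neighbours read from a shared promoter region on opposite strands. In SU-DHL-8 TAP1 was called higher and PSMB9 lower (16.7 ± 0.27 FPKM with morusinol and 24.8 ± 0.23 FPKM in controls; SD, n = 3 each).

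**Figure D5:**
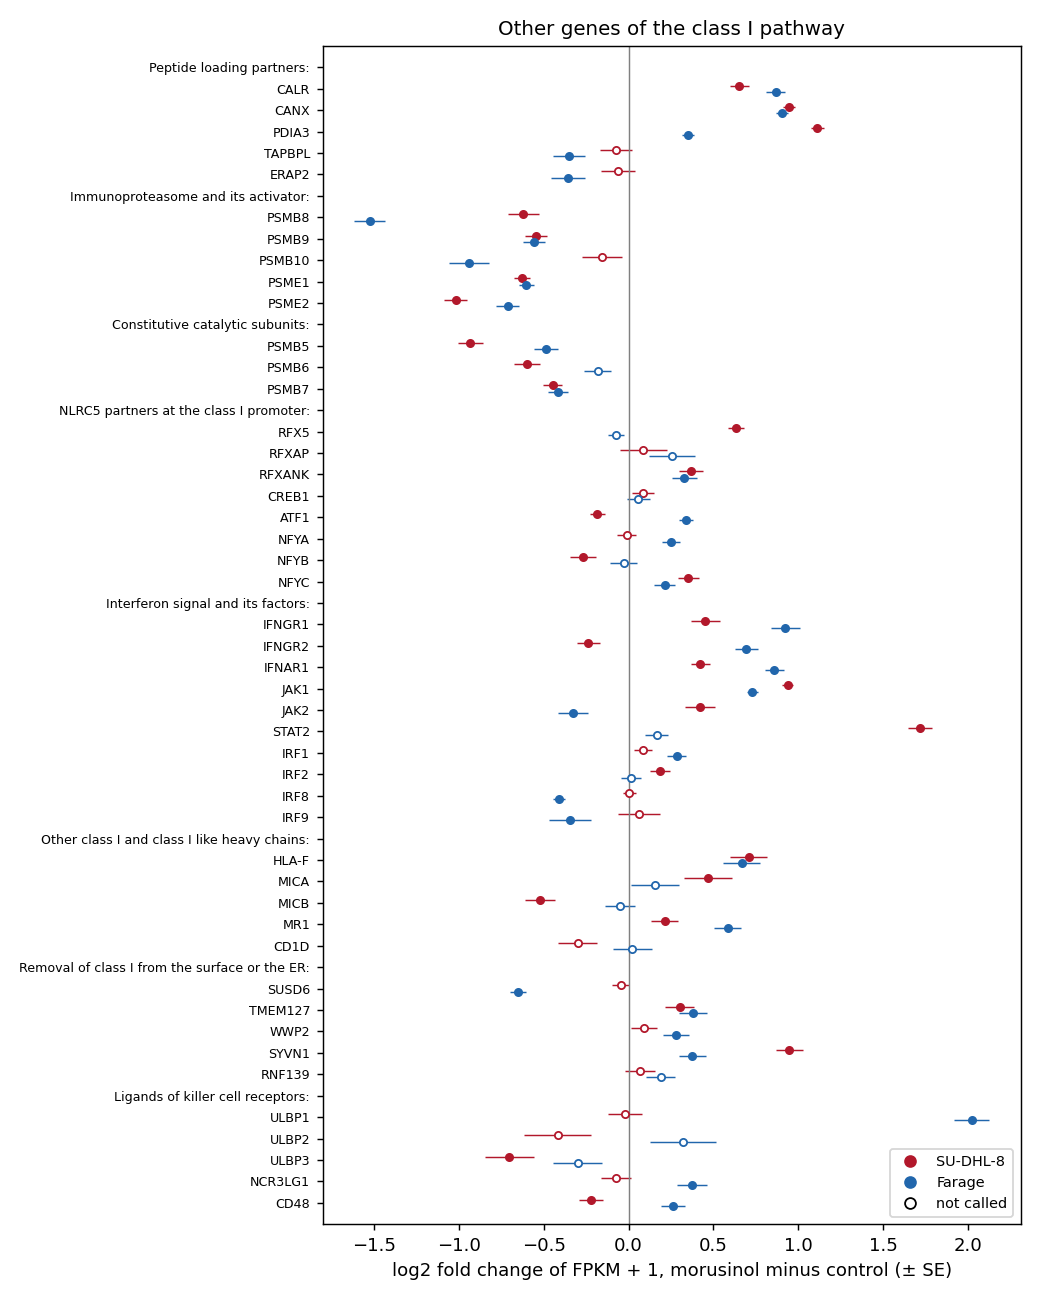
Log2 fold change of FPKM + 1, morusinol minus control, of the tested genes of 8 further lists of the class I pathway in each line, with SE bars; filled points passed an adjusted p of 0.05 and open points did not. CALR, CANX and PDIA3 lie right of 0 and the immunoproteasome genes left of 0 in both lines, and ULBP1 stands out at 2.02 in Farage.

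Among 8 partners of NLRC5 at the class I promoter, 3 were higher and 2 lower in SU-DHL-8 and 4 were higher and none lower in Farage. Over all genes tested, 25.1% were higher and 21.6% lower in SU-DHL-8, and 21.9% higher and 21.2% lower in Farage. The SU-DHL-8 counts thus do not set this list apart. RFX5, the DNA-binding subunit of the RFX factor, was at 87.4, 84.1 and 81.7 FPKM in SU-DHL-8 morusinol libraries, against 55.7, 53.1 and 53.6 FPKM in SU-DHL-8 controls. In Farage the level was 16.1, 15.5 and 14.9 FPKM with morusinol and 17.3, 15.3 and 16.5 FPKM in controls. All treated SU-DHL-8 libraries were higher (0.63 ± 0.048, limma adjusted p = 1.8e-06), and the Farage groups overlapped (-0.08 ± 0.048, limma adjusted p = 0.25). RFXANK, another RFX subunit, rose by 0.37 in SU-DHL-8 and 0.33 in Farage. ATF1, of the CREB family, fell by 0.18 in SU-DHL-8 and rose by 0.34 in Farage, and NFYB, a subunit of NF-Y, fell by 0.27 in SU-DHL-8. The falls of this list in SU-DHL-8 were not called when libraries were scaled to protein-coding genes, and its median there was 0.09 as given, -0.01 with TPM and -0.06 with medians aligned.

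Of 11 genes of interferon signalling and its factors, 10 were tested; 6 were higher and 1 lower in SU-DHL-8, and 5 were higher and 3 lower in Farage. STAT2, a transcription factor of the type I interferon signal, was at 22.3, 23.4 and 21.4 FPKM in SU-DHL-8 morusinol libraries, against 6.11, 5.54 and 6.73 FPKM in SU-DHL-8 controls. Farage morusinol libraries held 15.7, 16.3 and 14.7 FPKM, against 14.8, 13.4 and 13.1 FPKM in Farage controls. The SU-DHL-8 groups stood far apart (1.72 ± 0.069, limma adjusted p = 1.8e-08), while the Farage value of 0.17 ± 0.069 was not called (limma adjusted p = 0.079). JAK1, the kinase of both interferon receptors, rose by 0.94 in SU-DHL-8 and 0.73 in Farage. The receptor chains IFNGR1 and IFNAR1 rose by 0.92 and 0.86 in Farage and by 0.45 and 0.42 in SU-DHL-8, and IFNGR2 was higher in Farage (0.69) and lower in SU-DHL-8 (-0.24). IRF9, which binds STAT2, fell by 0.35 in Farage and was not called in SU-DHL-8 (0.06). It passed the filter on low values only through the Farage libraries. All SU-DHL-8 libraries held at most 0.493 FPKM of IRF9, so little change could be read there. IRF8, a factor of germinal centre B cells, was at 90.8, 91.4 and 87.2 FPKM in Farage morusinol libraries, against 120.9, 114.8 and 123.2 FPKM in Farage controls, a fall of 0.41. In SU-DHL-8 it was at most 0.017 FPKM in any library. With scaling to protein-coding genes 6 genes of this list were higher and none lower in SU-DHL-8, so the fall of IFNGR2 was not called there, and the sign of IRF9 in SU-DHL-8 turned to -0.09 with medians aligned. The fall of IRF9 in Farage was not called under any of the 3 other scalings.

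Of 7 other heavy chains of the class I family listed, 5 were tested; 3 were higher and 1 lower in SU-DHL-8, and 2 were higher in Farage. HLA-F, a non-classical chain, averaged 4.50 ± 0.21 FPKM in Farage morusinol libraries and 2.48 ± 0.41 FPKM in Farage controls (SD, n = 3 each). In SU-DHL-8 it averaged 4.18 ± 0.47 FPKM with morusinol and 2.18 ± 0.38 FPKM in controls (SD, n = 3 each). These are log2 fold changes of 0.67 in Farage and 0.71 in SU-DHL-8, called in both. MR1, which presents vitamin B metabolites to MAIT cells, rose by 0.58 in Farage and 0.21 in SU-DHL-8. Of the stress ligands of the NKG2D receptor, MICA rose (0.47) and MICB fell (-0.52) in SU-DHL-8, and neither was called in Farage (0.16 and -0.05). MICB averaged 10.9 ± 1.6 FPKM in SU-DHL-8 morusinol libraries and 15.9 ± 0.55 FPKM in SU-DHL-8 controls (SD, n = 3 each). With TPM or with medians aligned, 1 gene of this list was higher and 2 were lower in SU-DHL-8. The latter included CD1D (-0.50 with TPM and -0.45 with medians aligned), which was not called as given. As FPKM, CD1D passed the filter on low values only through the 3 SU-DHL-8 controls (1.02, 1.37 and 1.25 FPKM). Its fall is therefore a description.

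Of 5 genes of class I removal, 3 were higher and 1 lower in Farage and 2 were higher in SU-DHL-8. SUSD6, which with TMEM127 and WWP2 forms a complex that takes class I to lysosomes, was at 8.07, 7.86 and 7.30 FPKM in Farage morusinol libraries, against 13.4, 12.4 and 12.4 FPKM in Farage controls. It was at 6.15, 6.60 and 6.47 FPKM in SU-DHL-8 morusinol libraries, against 6.54, 6.58 and 6.85 FPKM in SU-DHL-8 controls. Treated Farage libraries were all lower (-0.65 ± 0.048, limma adjusted p = 1.9e-06), and the SU-DHL-8 groups overlapped. TMEM127 rose by 0.38 in Farage and 0.30 in SU-DHL-8, and WWP2 rose by 0.28 in Farage and was not called in SU-DHL-8 (0.09). SYVN1, a ubiquitin ligase of the endoplasmic reticulum that removes misfolded proteins, rose by 0.95 in SU-DHL-8 and 0.38 in Farage. RNF139 was called in neither line (0.07 in SU-DHL-8 and 0.19 in Farage). With medians aligned, 1 gene of this list was called higher and 1 lower in SU-DHL-8.

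Ligands of killer cell receptors were listed as 8 genes, of which 5 were tested; 3 were higher in Farage and 2 lower in SU-DHL-8. ULBP1, a ligand of NKG2D, was at 4.33, 3.84 and 4.01 FPKM in Farage morusinol libraries, against 0.378, 0.184 and 0.188 FPKM in Farage controls. Every treated Farage library stood far above the controls, with a log2 fold change of 2.02. ULBP1 passed the filter on low values only through these 3 treated libraries, so its rise is a description, and the rises in Farage that do not rest on it number 2. SU-DHL-8 morusinol libraries were all listed at 0 for it, and SU-DHL-8 controls at 0, 0.022 and 0.021 FPKM, so no change could be read there. NCR3LG1, the ligand of NKp30, rose by 0.37 in Farage and was not called in SU-DHL-8 (-0.07). CD48, the ligand of CD244, rose by 0.26 in Farage and fell by 0.22 in SU-DHL-8, and ULBP3 fell by 0.70 in SU-DHL-8. In SU-DHL-8 the falls numbered 4 with medians aligned and 1 with scaling to protein-coding genes, and Farage had 3 rises under each of the 4 scalings.

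For 3 of the 9 genes the protein-coding genes of most similar pattern were looked up, as Pearson r of log2(FPKM + 1) over the 12 libraries among 6555 genes. These are descriptions over libraries that fall into 4 groups and share their scaling. For TAP1 they were NFKBIE (0.976), RPS19 (0.970) and H1-10 (0.967). For NLRC5 they were MARK2 (0.974), VGLL4 (0.967) and NENF (0.954). B2M, which varied least of these 3 (SD 0.085 on the log2 scale), had ACTR6 (0.918), RPL7 (0.824) and RPP40 (0.816).

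Estimated depth, read from the steps of the values in the table, was 9.37 to 18.9 M fragments (M, mega) for the Farage libraries and 6.05 to 15.2 M for those of SU-DHL-8. Farage morusinol libraries were at 12.651, 9.369 and 10.716 M, all below the Farage controls at 18.947, 18.585 and 16.579 M. The SU-DHL-8 groups overlapped, at 11.329, 6.054 and 14.964 M with morusinol and 15.23, 14.2 and 14.781 M in controls. Estimated depth thus went with the treatment in Farage, and its part in the results was not tested. The lowest estimate for 1 of the 9 genes in 1 library was 240 fragments (TAP2) and the highest was 38441 (B2M). Each group held all 5 B lymphocyte markers read here. Their summed level was 192.2 to 196.5 FPKM in SU-DHL-8 morusinol libraries and 304.3 to 318.5 FPKM in SU-DHL-8 controls, and 568.7 to 611.7 FPKM in Farage morusinol libraries and 891.9 to 942.6 FPKM in Farage controls. Of 14 T and NK cell markers the sum was 50.4 to 60.4 FPKM in Farage morusinol libraries and 75.3 to 85.0 FPKM in Farage controls, most of it TRAC. In SU-DHL-8 the same sum was 4.51 to 6.52 FPKM with morusinol and 7.45 to 7.93 FPKM in controls. Of these 14 markers, 3 (TRAC, PRF1 and IL7R) averaged at least 1 FPKM in each Farage group. The T cell receptor partners CD3D, CD3E and CD3G were at no more than 0.080 FPKM in any library of either line. The 14 myeloid markers summed to at most 1.96 FPKM and the 14 stromal and epithelial ones to at most 3.74 FPKM in any library. The B lymphocyte markers did not move together. In SU-DHL-8, CD79A (-2.00), CD22 (-1.26) and MS4A1 (-0.55) were lower, and CD79B (0.35) and PAX5 (0.18) were higher. CD79A, a chain of the B cell receptor complex, averaged 43.0 ± 2.9 FPKM in SU-DHL-8 morusinol libraries and 175.3 ± 5.1 FPKM in SU-DHL-8 controls (SD, n = 3 each). This fall in FPKM was larger than that of the summed level there, since CD79B and PAX5 rose. In Farage 4 were lower, MS4A1 by the most (-1.93), and CD79A was not called (-0.06). Over all genes tested, 25.1% were higher and 21.6% lower in SU-DHL-8, and 21.9% higher and 21.2% lower in Farage. The counts over 5 markers are descriptions. Levels of B cell markers and TRAC thus differed with the treatment, and their part in the results above was not tested. In such bulk libraries fewer cells of a type and less RNA per cell cannot be told apart.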

How the data were processed

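The 12 RNA-seq libraries of the 2 lymphoma lines were made with a SMARTer mRNA-seq kit, per the labels' protocols. The authors deposited their values as FPKM, with a column for each library, and no count data were analysed here. The aligner, counter and annotation release were not given in the sources used here. Mouse builds alone (GRCm38 and mm10) are listed in the submitters' processing notes, yet 58297 of the 61466 human gene identifiers (94.8%) match GENCODE release 29 on GRCh38, whose positions were used. Columns marked n were taken as controls, the only group of each line that the labels leave for them. Depth was estimated from the steps of values times exon length. With a tolerance of 0.02 fragments, 49.9 to 53.0% of values under 50 fragments fell on whole steps, so the estimate could be off by a constant factor, and no counting intervals are given.

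Values were tested as log2(FPKM + 1) with limma 3.58.1 in R 4.3.3 on the 17574 genes that reached 1 FPKM in 3 or more libraries. All 12 libraries entered 1 fit with 1 mean per group, an intensity trend and a robust prior. The tests are two-sided with Benjamini-Hochberg adjustment, and the method was tested on simulated data. Alternatives were a pseudocount of 0.1, no filter, 3 other scalings, other limma options, the libraries of a line alone, a replicate block and leaving out each library. Tables and plots used pandas 2.3.3, numpy 2.4.6 and matplotlib 3.10.9 under Python 3.11.15. All 9 genes are named whatever their values. From lists of up to 5 genes all tested genes are named, and from longer lists the 2 largest called rises and falls per line. Some genes of the lists are not reported here. The genes and lists were chosen with earlier results of these data known.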

Additional observations from a re-analysis of the deposited data

Results flagged for a closer look

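The results below are the class I pathway genes and the genes of the 8 further lists whose response to morusinol differed between the lines by the limma test of the difference itself, each given as the response in Farage minus that in SU-DHL-8 on the log2(FPKM + 1) scale with an adjusted p under 0.05. Among the 9 class I pathway genes the differences were HLA-B -0.82, ERAP1 -0.56, TAP2 -0.48, TAPBP -0.35, HLA-C -0.27 and HLA-E 0.48.

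Of the peptide loading partners, PDIA3 differed by -0.76. Of the proteasome genes, PSMB8 differed by -0.91, PSMB10 by -0.78, PSME2 by 0.31, PSMB5 by 0.44 and PSMB6 by 0.42. Of the NLRC5 partners, RFX5 differed by -0.71, ATF1 by 0.52 and NFYA by 0.26.

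Of the interferon genes, STAT2 differed by -1.55, JAK2 by -0.75 (lower in Farage, higher in SU-DHL-8), JAK1 by -0.21, IFNGR2 by 0.93, IFNGR1 by 0.47 and IFNAR1 by 0.43. IRF8 differed by -0.41, but it was at or near 0 in all SU-DHL-8 libraries, so this value is the Farage change alone. Of the other heavy chains, MICB differed by 0.47 and MR1 by 0.37. Of the genes of class I removal, SUSD6 differed by -0.60 and SYVN1 by -0.57. Of the ligands of killer cell receptors, CD48 differed by 0.48 and NCR3LG1 by 0.45. The value of 2.04 for ULBP1 is a description, since the gene passed the filter on low values only through the Farage morusinol libraries and had no level to change in SU-DHL-8. No explanation was tested for any of these.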

How the results depend on the processing

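Of the Farage calls among the 9 genes, 3 in place of 5 were left without a filter on low values, with TPM, with scaling to protein-coding genes and with library medians aligned, and leaving out 1 library gave 3 to 5. The counts in the other comparisons stayed within 1.5 times the reported ones. Leaving out 1 library gave 4 to 6 of the 9 genes in SU-DHL-8, 4 to 6 for the difference of the responses and 6 to 7 for the controls. Signs turned for values that were not called: B2M in SU-DHL-8 (-0.022 with TPM, -0.067 with medians aligned), TAPBP in SU-DHL-8 (-0.014 with medians aligned), HLA-C in Farage (0.0038 with scaling to protein-coding genes), and, between the controls with medians aligned, HLA-E (-0.11) and B2M (-0.13). There NLRC5, a called value, turned to -0.060. The cause was not tested. Over the values of the 9 genes in the 4 comparisons, leaving out 1 library kept direction and call in 383 cases, lost the call in 39 and added one in 10. Other settings kept both in 223 cases, lost the call in 28, added one in 12 and turned the sign in 7.

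Deviations of same-numbered treated and control libraries correlated at -0.011, -0.016 and 0.033 in SU-DHL-8 and 0.031, -0.079 and -0.019 in Farage. Those of differently numbered libraries correlated at -0.038 to 0.042 in SU-DHL-8 and -0.096 to 0.115 in Farage. The same-numbered libraries thus did not stand out, but 3 libraries per group are too few to settle whether the numbers pair them. With the replicate number as a block, 5 of the 9 genes were called in SU-DHL-8 (7935 genes in all), 4 in Farage (7287), 6 for the difference (5786) and 6 between the controls (11145). The block ended the calls of NLRC5 in SU-DHL-8 (adjusted p = 0.066) and TAPBP in Farage (adjusted p = 0.060).

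Depth is an estimate, so precision rests on the spread of 3 libraries. Reads shared between heavy chain paralogs, and alleles unlike the reference, limit HLA-B, HLA-C and HLA-E most.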
